A study of Mus musculus with 8 samples.

Results

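The interferon-inducible GTPases examined here were 9 mouse genes, 4 guanylate-binding proteins (Gbp2, Gbp3, Gbp5 and Gbp6) and 5 immunity-related GTPases (Irgm1, Irgm2, Igtp, Iigp1 and Tgtp1). They were found by their symbols among the array probes that are not controls, and all 9 were present and measured. They were read by 13 of the 39417 probes that passed a filter on signal and make up 9 of the 26508 genes tested. RNA from mouse bone marrow cells was hybridised to 8 one-colour expression arrays, 2 in each of 4 groups. In 3 groups bone marrow had been cultured for 7 days with M-CSF, the growth factor that turns marrow precursors into macrophages. These macrophages then stayed in control media or received IL-4 or LPS for 24 hours. IL-4 is the T helper cytokine used to activate macrophages in the alternative way, and LPS, from the outer membrane of bacteria, is used for classical activation. The cells of the fourth group, called colony cells, came from bone marrow kept for 7 days on a monolayer of endothelial cells in HSC media, so substrate and medium differed together from those of the macrophages. All 4 groups, controls included, came from mice of the B6.Cg background with the transgene Tg(CAG-DsRed*MST)1Nagy, which carries a red fluorescent protein under the broadly active CAG promoter. Nothing in the labels tells if the paired samples of each group were separate animals or cultures, or if endothelial cells were removed before RNA was taken, so p-values measure only the spread between these samples, which may be technical.

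Guanylate-binding proteins and immunity-related GTPases are among the most strongly interferon-induced proteins of mouse cells. They bind GTP, assemble on the vacuoles or surfaces of intracellular bacteria and protozoa, and help to break them open or expose them to other defences. Interferon gamma drives their genes in part through a gamma-activated site (GAS), while type I interferons act mainly through an interferon-stimulated response element (ISRE). In macrophages LPS acts on the receptor TLR4 and leads to secretion of interferon beta, which can then act back on the same cells, whereas IL-4 signals through STAT6.

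The genes lie in groups on the chromosomes. The letters before their start sites are shown because every one of the 7 members searched held an ISRE match there. Gbp5, Gbp3 and Gbp2 follow each other on chromosome 3 with 1 coding gene between each pair, Gbp7 and then Gbp2b. Igtp and Irgm2 are direct neighbours on chromosome 11, and Irgm1 and Tgtp1 lie on the same chromosome with 4 coding genes between them. Gbp6 lies apart on chromosome 5. The stretches below come from RefSeq on build GRCm38.p6 and are written 5′ to 3′ on the gene's own strand. Capitals mark ISRE matches, read on either strand, and in Irgm2, Igtp and Tgtp1 also the GAS match that stands before the ISRE.
Gbp2, plus strand, chr3:142620589-142620628: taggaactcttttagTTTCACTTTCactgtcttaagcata
Gbp3, plus strand, chr3:142559984-142560029: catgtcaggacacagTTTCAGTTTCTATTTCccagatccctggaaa
Gbp5, plus strand, chr3:142496754-142496793: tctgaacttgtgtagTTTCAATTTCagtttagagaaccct
Irgm1, minus strand, chr11:48871421-48871465: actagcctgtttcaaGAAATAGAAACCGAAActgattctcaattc
Irgm2, plus strand, chr11:58214898-58214937: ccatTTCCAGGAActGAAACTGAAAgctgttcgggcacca
Igtp, plus strand, chr11:58199507-58199546: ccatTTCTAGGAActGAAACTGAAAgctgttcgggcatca
Tgtp1, minus strand, chr11:48992299-48992338: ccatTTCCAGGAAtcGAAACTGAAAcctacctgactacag

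The ISRE was searched as GAAANNGAAA and the GAS as TTCNNNGAA, both on either strand, in the 250 bases before the start. The 7 members searched have 8 promoter entries, since Gbp3 has 2 listed start sites. An ISRE match stood in 7 of the 8, all but the second entry of Gbp3, against 2.98% of all 32851 promoter entries of that length. A GAS match stood in 4 of the 8 (Gbp5, Irgm2, Igtp and Tgtp1), against 7.02% of all entries. A STAT6 motif, TTCNNNNGAA, was found in 1 of the 8, the second entry of Gbp3, against 5.85% of entries. An NF-kB motif was found in 1 of the 8, that of Gbp5, against 7.25%. In Gbp3 and Irgm1 a pair of ISRE matches overlapped by some bases, and no match of one motif overlapped one of another in the members searched. In the immunity-related GTPases Irgm2, Igtp and Tgtp1 the GAS match ended 2 bases before the ISRE match began, while in Gbp5 the ISRE and the GAS matches lay far apart. The letters around the matches are much alike in Irgm2, Igtp and Tgtp1, so these are not independent cases of a match. A match is a run of letters and was not tested for binding. Gbp6 and Iigp1 are not shown.

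The full 250 bases are given for Gbp5, whose promoter held matches of 3 motifs, and for the neighbours Igtp and Irgm2, whose promoters shared 194 identical bases in alignment (77.6% of 250), against 136 to 141 in the other pairs of members compared. Capitals again mark ISRE and GAS matches.
Gbp5, plus strand, chr3:142496684-142496933: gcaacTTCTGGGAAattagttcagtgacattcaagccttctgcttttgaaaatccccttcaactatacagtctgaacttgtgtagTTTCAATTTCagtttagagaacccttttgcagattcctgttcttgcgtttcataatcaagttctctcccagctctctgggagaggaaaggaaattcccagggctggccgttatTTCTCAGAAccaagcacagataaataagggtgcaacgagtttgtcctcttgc
Igtp, plus strand, chr11:58199306-58199555: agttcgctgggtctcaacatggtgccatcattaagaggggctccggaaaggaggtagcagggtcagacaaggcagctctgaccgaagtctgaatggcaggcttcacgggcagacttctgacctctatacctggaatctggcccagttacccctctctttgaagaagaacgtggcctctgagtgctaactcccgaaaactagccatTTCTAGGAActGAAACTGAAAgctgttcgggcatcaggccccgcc
Irgm2, plus strand, chr11:58214727-58214976: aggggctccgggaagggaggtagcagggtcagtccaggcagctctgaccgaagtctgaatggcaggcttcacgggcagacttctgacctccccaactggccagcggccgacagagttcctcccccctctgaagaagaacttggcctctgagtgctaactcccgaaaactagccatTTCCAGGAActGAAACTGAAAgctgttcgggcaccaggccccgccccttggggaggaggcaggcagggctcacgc

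**Figure D1:**
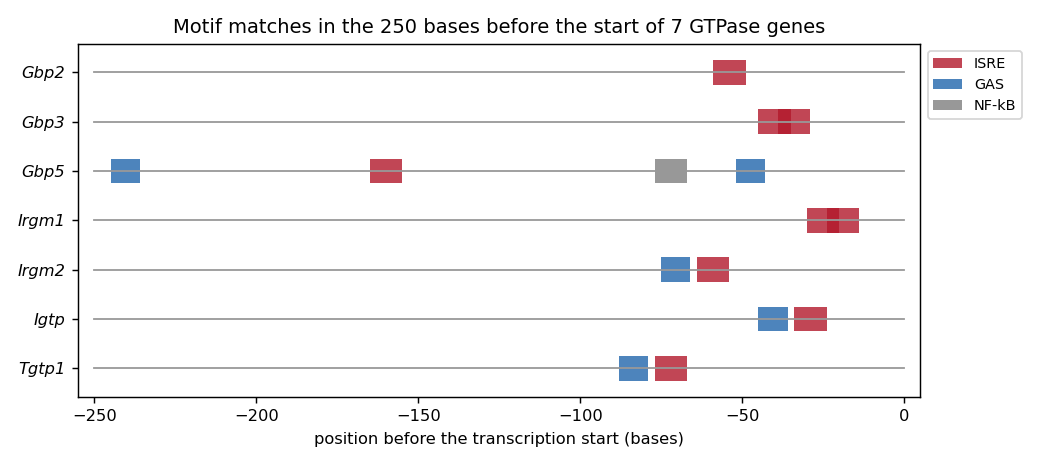
Motif matches in the 250 bases before the start of 7 members, by distance from the start in bases (horizontal axis). Each bar is 1 match. All 7 genes carried an ISRE match, and in Irgm2, Igtp and Tgtp1 a GAS match lay directly before it. For Gbp3 the first of its 2 listed start sites is drawn.

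Levels are log2 signals relative to the 75th percentile of the same array, so a value of 1 is a doubling of that array's 75th percentile signal. A level of one gene cannot be set against that of another, since each probe has its own brightness. The share of spots well above background was 62.4% to 67.5% on 7 arrays and 72.2% on the second LPS array. That array had 105 spots marked uneven, where each of the others had at most 5. No spot was saturated, and the number of arrays limits the precision. Each member's main probe was well above background on all 8 arrays. Differences between groups are given as log2 fold changes from limma, each with its standard error (SE), and a gene was called at an adjusted p under 0.05 over all genes tested.

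LPS raised every one of the GTPases. All 9 passed the test as higher than control, with log2 fold changes from 1.71 to 4.57 and a median of 3.77. Over all genes tested 29.0% were called higher with LPS and 54.4% in either direction, and the median change was 0.08. Both LPS arrays lay above both control arrays for 9 of 9 members, which held for 40.6% of all genes.

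Gbp2, whose protein coats the vacuole of Toxoplasma, stood at 2.50 and 2.55 on the control arrays and at 7.01 and 7.17 after LPS. The LPS arrays were thus far above both controls, a difference of 4.57 ± 0.08 (SE, 2 arrays per group) or 23.8-fold, with an adjusted p of 2.1e-06. Gbp3, from the same chromosome 3 cluster, rose from 1.99 and 1.98 to 5.80 and 5.93, a 14.8-fold difference. Gbp5, linked to assembly of the NLRP3 inflammasome, stood at 0.53 and 0.92 in controls and at 4.44 and 4.56 after LPS, a difference of 3.77 ± 0.14. Its control arrays were the most widely spaced control pair among the guanylate-binding proteins, and the LPS arrays were still clear of both. Gbp6, from the chromosome 5 cluster, stood in controls at -2.06 and -1.98 and reached 2.31 and 2.32, a 20.1-fold difference. All 4 guanylate-binding proteins therefore differed by at least 3.77 log2 units.

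The regulatory immunity-related GTPases sit on internal membranes and hold the effector members in their inactive form. Irgm1 stood at 4.08 and 3.95 in controls and at 6.07 and 6.17 after LPS, a difference of 2.10 ± 0.08 or 4.30-fold. Irgm2 moved from 3.29 and 3.19 to 5.13 and 5.27, a difference of 1.96 ± 0.08. Igtp, also called Irgm3, rose from 3.37 and 3.36 to 6.49 and 6.58, a difference of 3.17 ± 0.07 or 9.01-fold. Igtp was the only member printed in 10 spots on each array, and the log2 SD between those spots lay between 0.029 and 0.066 on each array.

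The effector members load onto the vacuole itself. Iigp1 (Irga6) stood at 1.05 and 1.12 in controls and at 2.73 and 2.86 after LPS, a difference of 1.71 ± 0.09 by its brighter probe. Tgtp1 (Irgb6) stood at -3.63 and -3.97 in controls and rose to 0.81 and 0.61, a difference of 4.51 ± 0.19 or 22.8-fold. Its probe also lists the transcript of Tgtp2, so that probe cannot separate the signals of these near-identical genes. Without the second LPS array, the one with uneven spots, all 9 genes were still called, with changes from 1.64 for Iigp1 to 4.61 for Tgtp1.

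**Figure D2:**
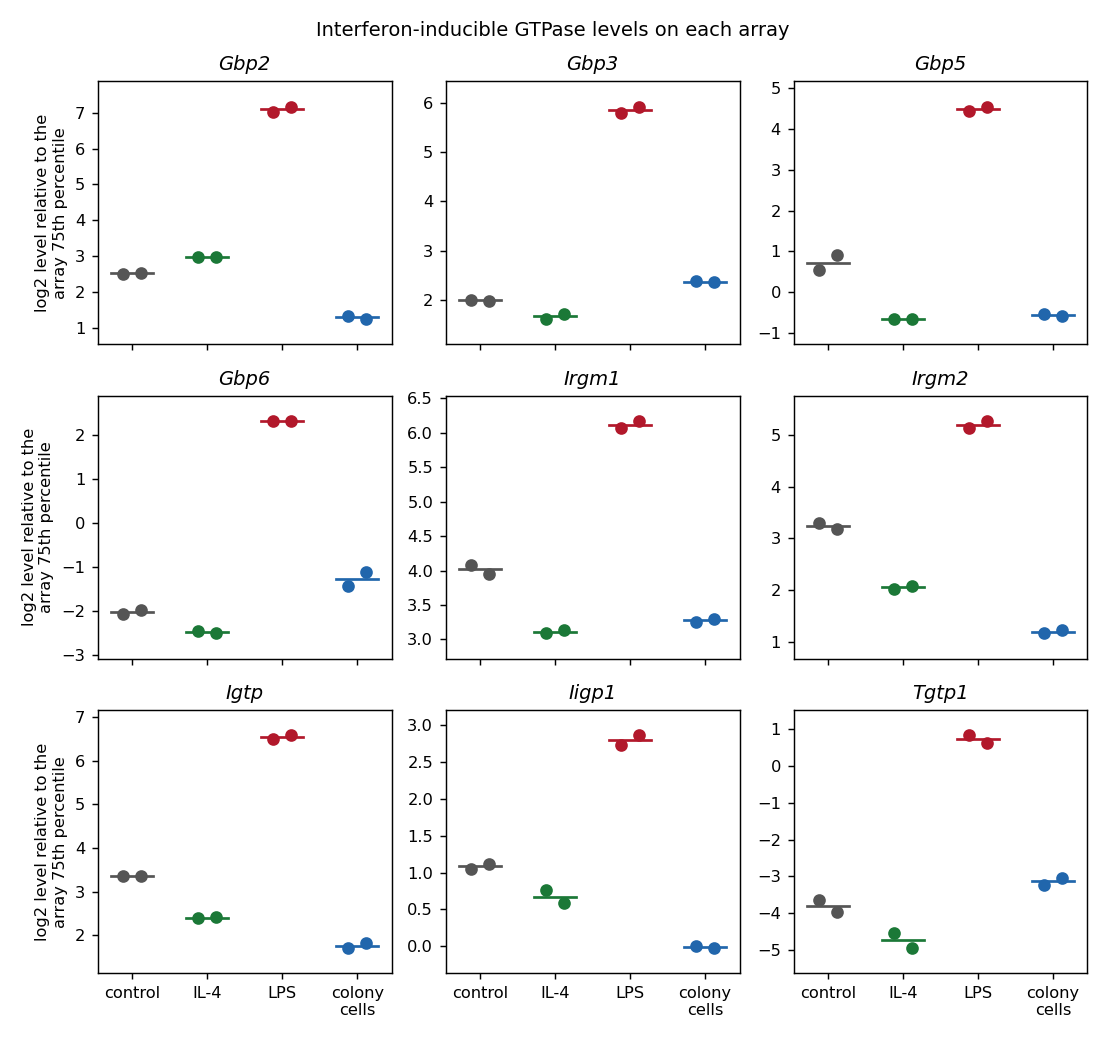
Log2 level relative to the array's 75th percentile (vertical axis) for each GTPase gene in the 4 groups. Points are single arrays and the short lines are group means. In every panel the 2 LPS arrays lie above all others, while the order of the other groups differs between genes. Vertical scales differ between panels.

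IL-4 moved most of the GTPases the other way. Against control, 7 of the 9 were called lower, Gbp2 alone was called higher, and Gbp6 did not pass. Over all genes 8.96% were called lower and 9.88% higher (18.8% in all). The median change of the members was -0.90, against -0.01 over all genes tested. Both IL-4 arrays lay below both control arrays for 8 members and above them for 1, Gbp2, against 30.9% and 30.4% of all genes. Changes were smaller than with LPS, from -1.38 to 0.47.

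All 3 regulatory members fell with IL-4. Irgm2 showed 2.03 and 2.08 with IL-4, below both control arrays, and fell by 1.19 ± 0.08 (adjusted p = 0.00076). Igtp, at 2.39 and 2.43, fell by 0.96 ± 0.07 (adjusted p = 0.0011), and Irgm1, at 3.09 and 3.14, by 0.90 ± 0.08 (adjusted p = 0.0017). These levels correspond to controls 2.28, 1.94 and 1.87 times as high, in that order. Among the effectors, Tgtp1 stood at -4.52 and -4.93 and fell by 0.93 ± 0.19 (adjusted p = 0.024). Iigp1 stood at 0.77 and 0.58 and fell by 0.41 ± 0.09 (adjusted p = 0.034).

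The guanylate-binding proteins were split under IL-4. Gbp5 read -0.66 and -0.65 and fell by 1.38 ± 0.14 (adjusted p = 0.0023), the largest decrease by the probes that stand for the members, though a dimmer probe of Iigp1 fell by 2.47. Gbp3 read 1.61 and 1.71 and fell by 0.32 ± 0.08 (adjusted p = 0.042). Gbp6 read -2.44 and -2.51, a difference of -0.45 with a 95% interval from -0.75 to -0.15, and did not pass over all genes (adjusted p = 0.055). Gbp2 read 2.99 on both IL-4 arrays and rose by 0.47 ± 0.08 or 1.38-fold (adjusted p = 0.016). The call for Gbp2 was lost with each control or IL-4 array left out in turn, at adjusted p from 0.057 to 0.098, while its difference stayed between 0.40 and 0.50 under every setting tried.

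The number of members called with IL-4 rests on few arrays. It was 4 without control replicate 1, 5 without control replicate 2, 5 without IL-4 replicate 1 and 4 without IL-4 replicate 2, and all of these were decreases. Gbp3 and Iigp1 lost their calls in each of these 4 fits, with adjusted p from 0.11 to 0.20 and from 0.065 to 0.17, and Tgtp1 lost its call without control replicate 1 (0.092) or IL-4 replicate 2 (0.11). Gbp5, Irgm1, Irgm2 and Igtp were called in all 4. With every array centred on its median, 4 members were called.

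Colony cells showed a mixed pattern, with 6 of the 9 GTPases called lower than in control macrophages and Gbp3, Gbp6 and Tgtp1 called higher. Over all genes 46.6% were called lower and 24.7% higher (71.3% in all), so a call is common in this comparison. The median gene was lower by 0.35 on this scale, and each change is therefore also given relative to that shift. Both colony arrays lay below both control arrays for 6 members and above them for 3, against 56.9% and 30.5% of all genes.

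Irgm2 and Igtp had the largest decreases in colony cells. Irgm2 read 1.16 and 1.22 on the colony arrays, below all 6 macrophage arrays, and fell by 2.05 ± 0.08 against control, or by 1.70 relative to the median gene. Igtp read 1.71 and 1.82, also below all 6 macrophage arrays, and fell by 1.60 ± 0.07, or by 1.25 relative to the median gene. Irgm1 read 3.26 and 3.29 and fell by 0.74 ± 0.08, which left 0.38 relative to the median gene. Gbp5, at -0.55 and -0.58, fell by 1.29 ± 0.14, or by 0.93 relative to the median gene. Gbp2, at 1.35 and 1.25, fell by 1.22 ± 0.08, or by 0.87 relative to the median gene, and was lower than in any macrophage group. Iigp1, at 0.01 and -0.02, fell by 1.09 ± 0.09, or by 0.74 relative to the median gene. The 6 decreases had adjusted p between 7.7e-06 and 0.00043.

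The increases in colony cells ran from 0.38 to 0.75. Gbp6 read -1.43 and -1.10 against about -2 in controls, a difference of 0.75 ± 0.12 (adjusted p = 0.0022) or 1.11 relative to the median gene. Tgtp1 read -3.23 and -3.04, a difference of 0.67 ± 0.19 (adjusted p = 0.021) or 1.02 relative to the median gene. Tgtp2, by the probe that stands for it, read 3.07 and 2.93 in controls and 3.06 and 3.12 in colony cells, so these arrays overlapped. Whether that probe reads Tgtp2 alone was not tested. Gbp3 read 2.37 and 2.36, a difference of 0.38 ± 0.08 (adjusted p = 0.0062) or 0.74 relative to the median gene. With every array centred on its median, the differences of Gbp3 and Tgtp1 were 0.24 and 0.52 and neither passed. Tgtp1 also lost its call without colony replicate 2, at a difference of 0.57, and without control replicate 2, at a difference of 0.50. Under another background correction its difference was 0.06 (adjusted p = 0.58). In the deposited table the differences of Tgtp1 and Gbp3 were 0.58 (adjusted p = 0.052) and 0.29 (adjusted p = 0.069), and neither passed.

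In colony cells against control, where 46.6% of all genes were called lower and 24.7% higher, markers of other cell types also differed. Those of leukocytes in general were lower in colony cells for 20 of 20 genes tested, and macrophage markers for 14 of 15, with 1 higher. The summed linear level of the leukocyte markers was 1450 to 1462 times the array's 75th percentile on control arrays and 214 to 215 on colony arrays. For the macrophage markers these sums were 3078 to 3100 and 330 to 339. Mesothelial markers were higher for 11 of 11, with sums of 0.098 to 0.115 on control arrays and 419 to 432 on colony arrays, and 8 of the 11 were not well above background on either control array. Stromal markers were higher for 10 of 12 and lower for 1, with sums of 0.85 to 1.02 against 420 to 423. Mast cell and basophil markers were higher for 7 of 8 and lower for 0, with a median change of 5.35. Their sums were 0.275 to 0.2996 on control arrays, 8.49 to 9.18 on LPS arrays and 5.85 to 5.92 on colony arrays, and 5 of the 8 were not well above background on either control array. Most of the LPS sum came from Hdc alone, at log2 levels of 3.01 and 3.16. With LPS 2 of the 8 were called higher than control and 1 lower. Endothelial markers were split, 5 higher and 4 lower of 11 tested. The endothelial cadherin Cdh5 was not well above background on either colony array, while Esam, Mmrn2, Tek and Robo4 were so on both colony arrays and on neither control array. The colony level of Esam exceeded its control level at least 456-fold. T and NK cell markers were higher for 3 and lower for 6 of 10, B cell markers lower for 3 of 5, dendritic cell markers higher for 2 and lower for 3 of 6, and neutrophil markers higher for 3 and lower for 1 of 9. None of the pan-leukocyte, macrophage, mesothelial, stromal or mast cell and basophil markers tested was dim on both colony arrays. The part of these cells in the GTPase values was not tested. In such bulk samples, fewer cells of a type and less RNA per cell cannot be told apart.

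**Figure D3:**
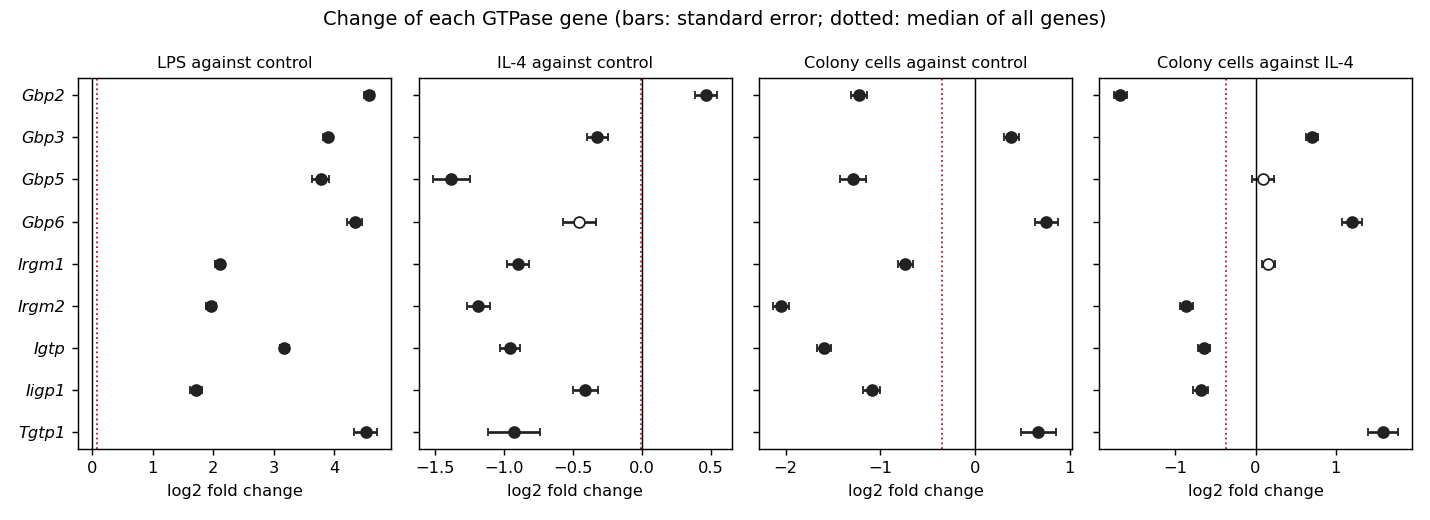
Log2 fold change (horizontal axis) of each GTPase gene in 4 comparisons, with standard errors. Filled points passed the test and open points did not, and the dotted line is the median of all genes. With LPS all 9 points lie above 1.7, with IL-4 only Gbp2 lies above 0, and in colony cells Gbp3, Gbp6 and Tgtp1 lie above 0. Horizontal scales differ between panels.

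Set directly against LPS, every member was lower in the other groups. With IL-4 all 9 were called lower than with LPS, from 4.35-fold for Iigp1 to 43.5-fold for Tgtp1 by the probes that stand for the members. The background for this comparison was 26.8% called lower and 52.4% called in all. Colony cells were also lower than LPS macrophages for all 9, from 6.99-fold for Iigp1 to 55.5-fold for Gbp2, where 49.8% of all genes were called lower and 76.4% in all. Both ends of these ranges depend on the probe. The other probes of Iigp1 and Gbp6 differed between IL-4 and LPS by -6.65 and -8.05 on the log2 scale, against -2.12 and -4.79 by the main ones. That of Gbp5 differed by -0.57 (adjusted p = 0.041), against -5.15. Between colony cells and LPS the other probes of Iigp1, Gbp6 and Gbp5 differed by -5.08, -6.48 and -0.63. Both comparisons share the LPS arrays. In both comparisons the arrays lay below both LPS arrays for 9 of 9 members, against 40.1% of all genes with IL-4 and 57.5% in colony cells.

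Colony cells and IL-4 macrophages differed in both directions. Gbp2 was lower in colony cells by 1.69 ± 0.08, Irgm2 by 0.86 ± 0.08 and Igtp by 0.64 ± 0.07. Iigp1 was lower by 0.68 ± 0.09 by its brighter probe, but higher by 1.57 by its dimmer probe (adjusted p = 9.8e-05) and by 0.44 by the mean of both (adjusted p = 0.0042), so its direction turns with the probe. Tgtp1 was higher by 1.60 ± 0.19, Gbp6 by 1.21 ± 0.12 and Gbp3 by 0.71 ± 0.08. These 7 passed the test by their main probes. A call is common in this comparison, with 71.6% of all genes called, 24.2% higher and 47.4% lower. Gbp5 differed by 0.09 with a 95% interval from -0.24 to 0.43, and Irgm1 by 0.16 with an interval from -0.04 to 0.36, and neither passed. Irgm1 was called higher in colony cells with quantile normalization (0.59, adjusted p = 0.00037) and with another background correction (0.225, adjusted p = 0.034), and differed by -0.008 with median centring. The median of all genes was -0.37 in this comparison. Relative to it, Gbp2 differed by -1.32, Irgm2 by -0.495, Iigp1 by -0.31 and Igtp by -0.27. Gbp5 and Irgm1 differed by 0.46 and 0.53, Gbp3 by 1.075, Gbp6 by 1.575 and Tgtp1 by 1.965, all by their main probes. Both colony arrays lay above both IL-4 arrays for 5 members and below them for 4, against 30.7% and 58.8% of all genes.

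The 9 genes thus fell into 4 orders of group means by their main probes, all with LPS at the top. Gbp2 descended from IL-4 to control to colony cells. Gbp3, Gbp6 and Tgtp1 descended from colony cells to control to IL-4, and for Gbp6 the last pair did not differ beyond the test. Gbp5 and Irgm1 descended from control to colony cells to IL-4, with the last pair not passing for either gene, and with its order turned for both under median centring. Irgm2, Igtp and, by its brighter probe, Iigp1 descended from control to IL-4 to colony cells with every neighbouring pair called. By its dimmer probe Iigp1 stood higher in colony cells than with IL-4. Over the 8 arrays, Pearson's r between members ran from 0.791 (Gbp6 and Irgm2) to 0.996 (Gbp5 and Irgm1). All pairs share the 8 arrays and the high LPS pair. The neighbours Igtp and Irgm2 had an r of 0.982, while Gbp2 and Gbp3 had 0.907.

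A second probe was available for Gbp5, Gbp6, Irgm1 and Iigp1, and the 2 probes of a gene did not always agree in size. Probe positions are on build mm9 as the array files give them, and exons were not assigned. For Irgm1 the probes at chr11:48679069-48679128 and chr11:48679632-48679691 gave LPS changes of 2.10 and 2.35, IL-4 changes of -0.90 and -0.76, and colony changes of -0.74 and -0.58. For Gbp5 the main probe at chr3:142184779-142184838 is used above. The other, at chr3:142181426-142181485, lists no transcript. It read 0.43 and 0.48 in controls against 1.05 and 0.52 after LPS, a difference of 0.33 ± 0.18 that did not pass (adjusted p = 0.17). Its IL-4 and colony changes were -0.24 and -0.30, and neither passed.

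For Gbp6 the probe at chr5:105700056-105700115, brighter in the mean over the 8 arrays, was set beside one at chr5:105702128-105702187. The latter lists a second transcript, of Gbp10, as well. On the LPS arrays it was the brighter of the pair, at 4.135 and 4.278 against 2.307 and 2.318. This second probe gave a larger LPS change, 6.78 ± 0.21, and an IL-4 change of -1.27 ± 0.21 that passed (adjusted p = 0.017). Its colony change of 0.29 did not pass (adjusted p = 0.27). For Iigp1, on chromosome 18, the probes lie at chr18:60550839-60550898 and chr18:60551352-60551411 and list the same transcripts. The dimmer one, at -2.73 and -2.62 in controls, -5.20 and -5.08 with IL-4, 1.49 and 1.54 with LPS, and -3.45 and -3.68 in colony cells, changed by 4.19 with LPS, -2.47 with IL-4 and -0.89 in colony cells. Between colony cells and IL-4 the Iigp1 probes pointed in opposite directions, -0.68 for the brighter and 1.57 for the dimmer, and both passed. The brighter probe shares a run of 15 bases with 39 of the 32851 promoter windows, against 0 to 9 for the other 12 probes. Whether it also reads other RNA was not tested.

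**Figure D4:**
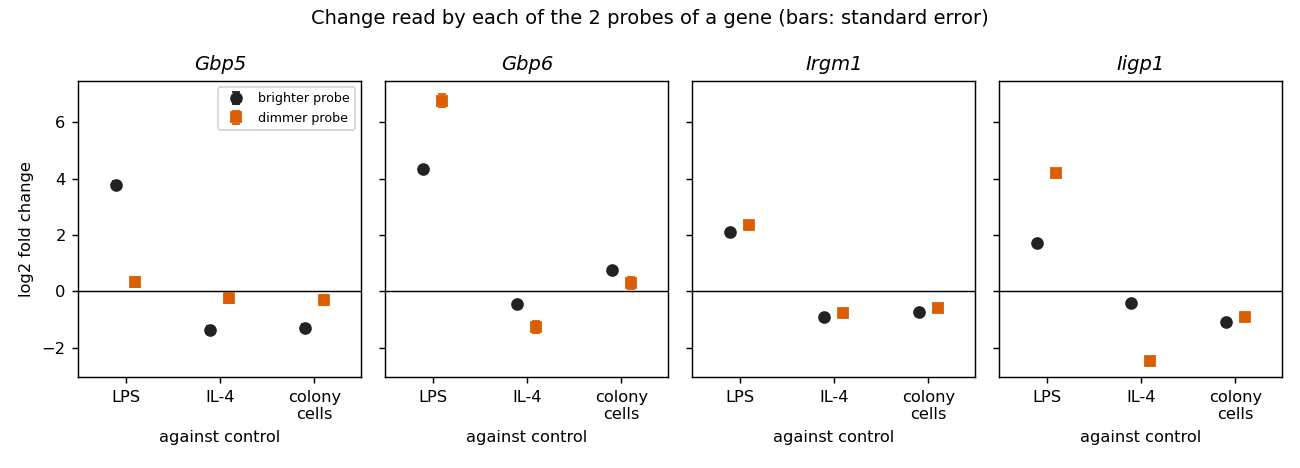
Log2 fold change against control (vertical axis) read by the brighter and the dimmer probe of the 4 genes with 2 probes, with standard errors mostly smaller than the points. The Irgm1 probes lie close together, while for Gbp5 only the brighter probe shows a large LPS change and for Iigp1 the dimmer probe shows the larger LPS and IL-4 changes.

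The remaining probes were single. Those of Gbp2 and Gbp3 lie at chr3:142300719-142300778 and chr3:142236032-142236091. Those of Igtp and Irgm2 lie at chr11:58020927-58020986 and chr11:58036093-58036152, and that of Tgtp1 at chr11:48799587-48799646.

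Other dynamin-like and interferon-inducible GTPases were read for comparison, 23 of 25 listed. The counts of this list and of those below stand beside the shares of all genes called against control. With LPS 29.0% were called higher and 54.4% in either direction. With IL-4 9.88% were called higher and 8.96% lower, and in colony cells 24.7% higher and 46.6% lower. With LPS 15 of the 23 rose and 2 fell, with a median change of 1.60. Gbp4 rose by 5.76 ± 0.08, Tgtp2 by 4.39 ± 0.10 and the antiviral gene Mx1 by 3.91 ± 0.14. Gbp7, which lies between Gbp5 and Gbp3, rose by 3.58 ± 0.18. With IL-4 10 of the 23 fell and 13 did not pass. Among them Mx1 fell by 2.59, Mx2 by 2.17, Tgtp2 by 2.07 and Gbp4 by 1.36. In colony cells 6 of the 23 were higher and 14 lower than control, and Mx1 fell by 5.56 ± 0.14.

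Gbp2b, which lies between Gbp3 and Gbp2, differed from its neighbours. It was near the limit of detection at -5.37 and -6.48 in controls, -5.46 and -6.41 with IL-4, and -5.57 and -4.75 with LPS, and well above background on only 1 of the 2 control arrays. On the colony arrays it read -0.48 and -0.49, above all macrophage arrays. It was higher in colony cells than in control by 5.44 ± 0.50 (adjusted p = 0.00022), while its LPS change of 0.77 ± 0.50 did not pass (adjusted p = 0.25). Gbp2 and Gbp3, the genes on either side of Gbp2b, read -1.22 and 0.38 in the same colony comparison.

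Ligands and inducing cytokines differed in detection, and 8 of 11 listed could be tested. Of these 6 rose and 0 fell with LPS, 2 rose and 3 fell with IL-4, and 2 were higher and 5 lower in colony cells. The Ifng probe, for interferon gamma, was well above background on 0 of 8 arrays, as was that of Ifna4. Ifnb1, for interferon beta, read 0.10 and -0.05 on the LPS arrays against -4.88 and -5.90 in controls, of which 1 of 2 was well above background, a difference of 5.42 ± 0.32. Of other interferon genes, Ifnl3 and a probe of Ifna2 were well above background on all 8 arrays. Another Ifna2 probe was so on 6 of 8 arrays and on neither colony array. The LPS changes of Ifna2 and Ifnl3, -0.12 ± 0.12 and 0.12 ± 0.11, did not pass (adjusted p = 0.45 and 0.39). On the IL-4 and colony arrays Ifnb1 was not well above background, and LPS was at least 69.5-fold and 85.4-fold higher. Il12a, which encodes a subunit of IL-12, an inducer of interferon gamma, was at least 26.4-fold higher with LPS than in control. Il18, Il27 and Ebi3, which were well above background on every array, rose with LPS by 2.22 ± 0.145, 0.97 ± 0.10 and 2.54 ± 0.09.

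Receptor chains and kinases moved in different directions with LPS, 5 of 9 higher and 2 lower. Ifngr1, the ligand-binding chain for interferon gamma, fell by 1.63 ± 0.13, while its partner Ifngr2 rose by 1.20 ± 0.09. The kinase gene Jak2 rose by 3.25 ± 0.09. With IL-4 1 of 9 rose, Jak2 by 0.91, and 3 fell. In colony cells 7 of 9 were lower and 1 higher, with Ifngr1 lower by 3.06 ± 0.13 and Ifnar1 by 2.12 ± 0.07, beside the lower leukocyte markers described above.

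Of the 11 transcription factors, 8 rose with LPS and 1 fell. Irf7, the factor that amplifies type I interferon, rose by 4.45 ± 0.11 and Stat2 by 2.19 ± 0.09. With IL-4 6 of 11 fell and 2 rose. Irf7 fell by 2.11 ± 0.11, Stat2 by 0.72 ± 0.09 and Irf9 by 0.61 ± 0.08. Irf1, an activator of many GTPase genes, rose by 0.63 ± 0.07, and its LPS change was 0.64 ± 0.07. In colony cells 9 of 11 were lower, from 0.97 for Irf9 to 3.08 for Irf8.

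Feedback inhibitors included genes that rose with both stimuli. Socs1, the inhibitor of JAK kinases downstream of interferon gamma, rose by 5.07 ± 0.12 with LPS and by 4.09 ± 0.12 with IL-4, and its colony difference was 0.14 ± 0.12 (adjusted p = 0.35). Usp18, which dampens the type I interferon receptor, rose by 4.72 ± 0.08 with LPS and fell by 1.29 ± 0.08 with IL-4. Socs3 rose by 6.81 ± 0.08 with LPS and fell by 0.86 ± 0.08 with IL-4. In the whole list of 10, 8 rose and 1 fell with LPS, 4 rose and 3 fell with IL-4, and 4 were higher and 3 lower in colony cells. In a list of STAT6 signalling and target genes, read as a check of the IL-4 treatment, 8 of 12 were higher and 3 lower with IL-4, among them Chil3 by 3.93 ± 0.08 and Cish by 4.35 ± 0.11.

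**Figure D5:**
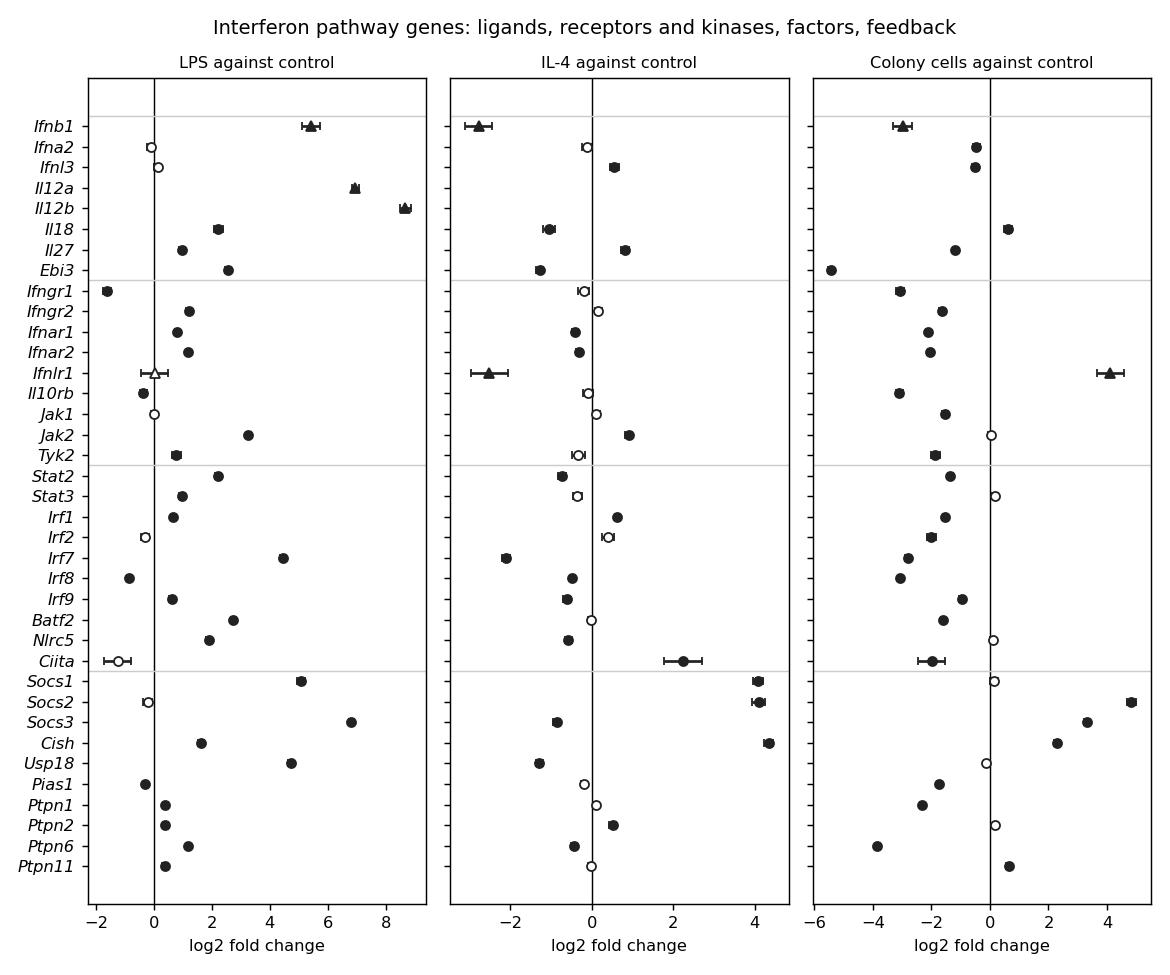
Log2 fold change against control (horizontal axis) of the pathway genes, grouped from top to bottom as interferons and inducing cytokines, receptors and kinases, transcription factors, and feedback genes, with standard errors. Filled symbols passed the test, and triangles mark genes with an array not well above background in 1 of the groups. Genes dim on all arrays compared are not drawn, and 10 of the 11 transcription factors are shown. Irf7 and Stat2 lie above 0 with LPS and below 0 with IL-4 and in colony cells, while Socs1 lies above 4 with both stimuli.

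Genes that act beside the GTPases were read as well. Of 15 genes of LPS sensing and of inflammasomes linked to guanylate-binding proteins, 11 rose and 2 fell with LPS. The immunity-related GTPase Gm12250 (Irgb10), which acts on bacterial membranes, rose by 2.99 ± 0.08, and Casp4, the mouse caspase-11 gene for cytosolic LPS, rose by 2.00 ± 0.07. With IL-4 7 of the 15 fell, Gm12250 by 0.66 and Casp4 by 0.64, and 2 rose. In colony cells 13 of 15 were lower and 1 higher, against 46.6% and 24.7% of all genes. Casp4 differed there by -0.02 ± 0.07 (adjusted p = 0.85). Of 19 genes that target GTPases to vacuoles or act in autophagy, 7 rose and 7 fell with LPS, with a median of -0.12. With IL-4 3 of the 19 fell and 0 rose, and in colony cells 17 were lower and 0 higher. Atg16l1, which helps to load GTPases onto vacuoles, rose by 2.92 ± 0.18 with LPS. The ubiquitin ligase genes Rnf213 and Trim21 rose by 1.70 and 1.57 with LPS and fell by 0.88 and 0.56 with IL-4.

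The genes most like the members over the 8 arrays were ranked among 16565 genes with complete values and a range of at least 1 log2 unit. The mean profile of the 4 guanylate-binding proteins was most closely followed by Inpp5b (r = 0.9989), Pgs1, Acsl1, an unnamed transcript, Xkr8 and Gm4841, the last with an r of 0.998. Among the genes closest to that of the 5 immunity-related GTPases were Gpr84 (r = 0.9987), Parp10, Phf11a, Adgb and a further unnamed probe. Acsl1, a long-chain acyl-CoA synthetase gene, read 3.15 and 3.16 in controls, 2.73 and 2.75 with IL-4, 6.81 and 7.01 with LPS, and 2.99 and 3.06 in colony cells. Parp10, a mono-ADP-ribosyltransferase gene, read 5.03 and 4.89 in controls, 4.46 and 4.46 with IL-4, 6.89 and 6.88 with LPS, and 4.42 and 4.41 in colony cells. Gm4841 was well above background on the 2 LPS arrays alone, and Adgb on these and 1 control array, so their r rests largely on values at the limit of detection. These genes were picked for their high r and share the same 8 arrays, on which the LPS pair sets most of the range.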

How the data were processed

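Expression was measured on 8 one-colour Agilent arrays. The scanner files hold spot intensity made, per the file headers, with Agilent Feature Extraction 10.7.3.1, background-subtracted but not scaled between arrays; other columns, deposited in the same files, mark spots as well above background, uneven, outlying or saturated. A deposited value table is on the log2 scale and served as an alternative. The submitters' processing notes list Partek 6.4 and RMA but give neither a role. Per the file headers the 8 arrays shared 1 slide, so the slide cannot differ between groups.

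Uneven and outlying spots were left out, the log2 signal minus each array's 75th percentile was taken, and spots of a probe were averaged. A probe was kept if some group had it well above background on each of its 2 arrays (39417 of 55681). The probe with the highest mean stood for a gene. This gave 26508 genes, of which 39 lacked a value on some array. Comparisons used limma 3.58.1 (R 4.3.3) with 1 model over all arrays with 4 residual and 1.59 prior degrees of freedom, with Benjamini-Hochberg adjustment over all genes. The script was tested on simulated data. With 2 arrays against 2, the smallest two-sided p of an exact permutation test is 0.333.

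A bound ("at least") sets the brighter group's mean against the dim group, where each array's value was raised, if needed, to its lowest detected signal. Names were updated from RefSeq tables: 26762 probes by transcript, 3819 by symbol, 639 by synonym, and 24461 kept the file's name. All 9 members are named, as are, per list, at most 6 of the called genes, taken by size of change, and the 6 genes most like each of the 2 mean profiles. Genes of lists of up to 12 could all be named. Gbp2b in all groups, and Casp4 and endothelial markers in colony cells, were singled out after their values were seen. Some genes of the lists and rankings are not reported here. Members and lists were chosen with earlier results of these data known.

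Samples of a number in different groups did not deviate together: the correlation of their deviations ran from -0.16 to 0.05 over pairs of groups, so numbers were not taken as pairs. Alternatives were the deposited table, quantile normalization, median centring, another background correction (normexp, offset 50), other filters, the mean of a gene's probes, array weights, an intensity trend, only the groups compared, the replicate block, each array left out, and, added after seeing the data, the dimmest probe of each gene.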

Additional observations from a re-analysis of the deposited data

How the results depend on the processing

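The calls with LPS against control, IL-4 against LPS and colony cells against LPS held for 9 of 9 members under every setting tried, except that Gbp5 did not pass with LPS by its dimmer probe (0.33). IL-4 against control depended most on the setting. There 4 members were called with median centring and 5 with only the groups compared, against 8; leaving out 1 array gave 4 to 8. Calls over all genes with IL-4, 4993 as reported, were 2832 in the deposited table, 2601 with median centring, 3239 with only the groups compared, and 1941 to 5253 with 1 array left out, where a lone array is assumed to vary like the others. With the replicate block, 9 members were called with LPS, 6 with IL-4, 9 in colony cells against control and 7 in colony cells against IL-4, and that block is not taken as a pairing. Iigp1 reversed in colony cells against IL-4, at 1.57 by its dimmer probe and 0.44 by the mean of its probes, since its probes point opposite ways. In that comparison Irgm1 gained a call with quantile normalization (0.59) and with normexp (0.225), against 0.16. Of 180 member values each, 33 lost and 6 gained a call for IL-4 against control, and 9 lost one for colony cells against control. Median centring moved the median of all genes in colony cells against control from -0.35 to -0.50. Some members lie close to the threshold, and 2 arrays per group limit what can be called.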
